A study of Mus musculus with 4 samples.

Results

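The 10 genes below carry the decision of a cell to leave G1 and replicate its DNA, and their transcripts were followed here in the 2 single–cell clones of the murine TNBC line 4T1. The genes are the D–type cyclins Ccnd1, Ccnd2 and Ccnd3, their kinases Cdk4 and Cdk6, the E–type cyclins Ccne1 and Ccne2 with their kinase Cdk2, the retinoblastoma gene Rb1 and the transcription factor gene E2f1. They were found by exact symbol among 49585 genes, and all 10 were present, with 1 entry each. RNA was measured in 4 libraries, 1 for each condition. The study describes its experiments as replicated, and whether a library holds RNA of a single culture or of several pooled cultures is not given in the sources used here. 4T1–HM is a clone with a high and 4T1–LM a clone with a low metastatic capacity, so a difference between the clones is a difference between 2 selected lines, each grown from a single cell. For 48 h, cells of each clone received deferasirox (DFX), an iron chelator dissolved in DMSO, at 50 μmol/L (HM_DFX and LM_DFX) or DMSO alone (HM_Ctrl and LM_Ctrl). With 1 library for each condition, no difference given here has a replicate check or a p–value.

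In G1, cyclin D binds CDK4 or CDK6 and this kinase begins to phosphorylate the Rb protein. Rb holds E2F factors in check, and once it is phosphorylated E2F switches on genes of DNA replication, among them the E–type cyclins, whose kinase CDK2 completes the phosphorylation of Rb. Cyclin D1 is the D–type cyclin best known in mammary epithelium and breast cancer, and its gene responds to growth factor signaling. Iron chelators are known to arrest proliferating cells in G1 or S phase and to lower the cyclin D1 protein. Much of this circuit is controlled at the level of protein and phosphorylation, which RNA does not show.

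The library totals lay between 14363065 and 21883855 fragments (read pairs), as solved from the whole steps in which the deposited FPKM move. Genes whose fragments were recovered as whole numbers held between 77.5% and 78.3% of these totals. To obtain FPKM, fragments are divided by the annotated exonic length and by the library total. Orders, shares and ratios between different genes therefore depend on the annotation, which the counting intervals do not cover. For Cdk2 this length was 6219 bases in the annotation used here, but 2432 bases was the smallest that gave whole fragments. The length cancels when the FPKM of 1 gene is divided between libraries. Genes with at least 1 FPKM in at least 1 library were counted as expressed (12669 genes, among them all 10 G1 genes). The log2 ratios of single genes are ratios of FPKM without a pseudocount, and the interval in parentheses covers counting error only, at 95%, not the variation between cultures. A gene was called higher or lower when FPKM + 1 differed by at least 2–fold between a pair of libraries, and list medians use the same FPKM + 1 scale. The treatment labels were checked with 2 genes, Tfrc and Ndrg1. Tfrc is the transferrin receptor gene, whose transcript is stabilised when iron is low. It had 102 FPKM (DMSO) and 175 (DFX) in 4T1–HM, and 107 (DMSO) and 188 (DFX) in 4T1–LM. These rises of 1.72–fold and 1.76–fold were short of a 2–fold call. Ndrg1 had 177 FPKM (DMSO) and 577 (DFX) in 4T1–HM, and 49.1 (DMSO) and 613 (DFX) in 4T1–LM. It was called higher in both clones, and without drug it was 3.60–fold higher in HM_Ctrl than in LM_Ctrl. All 6 epithelial markers reached 1 FPKM in each library, and Epcam, Cdh1, Krt8 and Krt18 had at least 13.5 FPKM. Of the receptors missing from triple–negative cells, Esr1 was below 1 FPKM and Pgr was at 0, while Erbb2 had between 3.80 and 12.5 FPKM. The summed level of the epithelial markers was 1507 and 2120 FPKM in HM_Ctrl and LM_Ctrl, against 456 and 975 in HM_DFX and LM_DFX. Of 5 leukocyte markers in the table only Cd68 reached 1 FPKM, with 12.9 and 12.3 FPKM under DMSO and 37.4 and 83.1 under DFX, while the pan–leukocyte gene Ptprc stayed at or below 0.0139. Of 6 fibroblast markers only Pdgfra reached 1 FPKM (2.77 to 5.50), and of 4 endothelial markers 0 did. The part of these shifts in the results below was not tested.

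The 10 transcripts covered a wide range of levels. In HM_Ctrl the order from high to low was Ccnd1 (293 FPKM), Cdk4 (112), Ccnd2 (21.2), Cdk2 (16.5), E2f1 (16.0), Cdk6 (8.44), Ccne2 (6.99), Ccnd3 (5.67), Rb1 (4.96) and Ccne1 (4.55). Neighbours whose counting intervals overlapped in this library were Cdk2 and E2f1, Ccnd3 and Rb1, and Rb1 and Ccne1. The order of different genes in a library also depends on their annotated lengths. Ccnd1 and Cdk4 were the leading transcripts of the 10 in all 4 libraries, but their order changed with treatment, since Ccnd1 stood first under DMSO and Cdk4 first under DFX in both clones. Ccnd1 ranked at the 98.9th and 99.0th percentile of expressed genes in HM_Ctrl and LM_Ctrl, and at the 90.5th and 94.8th in HM_DFX and LM_DFX. The lowest transcript was Ccne1 in HM_Ctrl and LM_DFX, and Rb1 in HM_DFX and LM_Ctrl. The plot of FPKM by gene and library shows these levels.

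**Figure D1:**
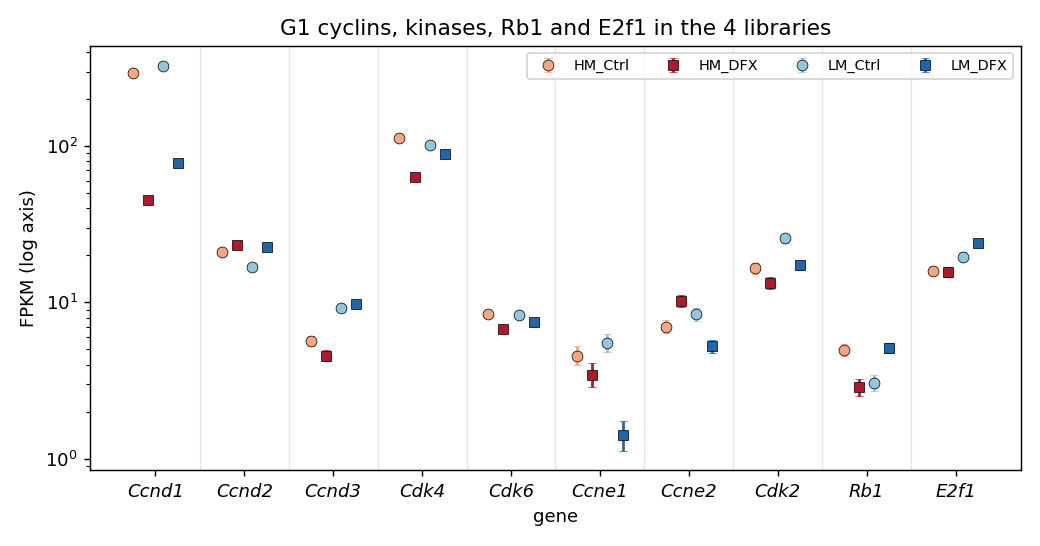
FPKM of the 10 G1 genes on a log axis, 1 point for each library (circles for DMSO, squares for DFX, red tones for 4T1–HM and blue tones for 4T1–LM), with bars for the 95% counting interval. Ccnd1 drops from 293 to 45.5 FPKM in 4T1–HM and from 326 to 78.3 in 4T1–LM, while Cdk4 lies between 63.7 and 112 FPKM, below Ccnd1 in both DMSO libraries and above it in both DFX libraries.

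Ccnd1 was the G1 gene with the largest difference under DFX, lower in both clones, and it was the only one of the 10 genes called in 4T1–HM. In HM_DFX against HM_Ctrl, 1 of the 10 genes was at least 2–fold lower and 0 were higher, where 12.4% of expressed genes were lower and 6.93% higher (19.3% in either direction). In LM_DFX against LM_Ctrl, 2 of the 10 were at least 2–fold lower, Ccnd1 and Ccne1, and 0 were higher, where 8.72% of expressed genes were lower and 7.09% higher (15.8% in either direction). Shares of 1 or 2 in 10 are near these backgrounds, so the calls do not set the genes apart as a group. The median log2 fold change of the 10 genes was −0.29 in 4T1–HM and −0.16 in 4T1–LM, against −0.10 and −0.04 over all expressed genes. In 4T1–HM 8 of the 10 had a lower value under DFX and in 4T1–LM 6 of the 10. The share of all expressed genes with a lower value was not computed, but their median was also below 0 in both clones. In a bulk culture, fewer cells in a phase of the cycle and less RNA in each cell cannot be told apart.

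Ccnd1 (ENSMUSG00000070348, minus strand, chr7:144929931-144939925 of mm10) encodes cyclin D1. Its level was 293 FPKM (DMSO) and 45.5 (DFX) in 4T1–HM, and 326 (DMSO) and 78.3 (DFX) in 4T1–LM. Both DFX libraries were far below both DMSO libraries. The level was 6.45–fold lower with DFX in 4T1–HM (log2 ratio −2.69, interval −2.74 to −2.64) and 4.16–fold lower in 4T1–LM (log2 ratio −2.06, interval −2.09 to −2.02). These ratios rest on 23133 and 3075 fragments in 4T1–HM and on 24117 and 8067 in 4T1–LM. Without drug the clones differed little (log2 ratio of HM_Ctrl to LM_Ctrl −0.15), and under DFX HM_DFX was 1.72–fold below LM_DFX. Exons of LTO1, which lies on the opposite strand, overlap 23.4% of the exonic length of Ccnd1. LTO1 itself had between 1.51 and 3.42 FPKM, far below Ccnd1 in each library.

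Ccnd2 (ENSMUSG00000000184, minus strand, chr6:127125162-127152193) encodes cyclin D2, a close relative that can also activate CDK4 and CDK6. It had 21.2 FPKM (DMSO) and 23.3 (DFX) in 4T1–HM, and 16.9 (DMSO) and 22.8 (DFX) in 4T1–LM, with log2 ratios under DFX of 0.14 (0.07 to 0.21) in 4T1–HM and 0.43 (0.36 to 0.50) in 4T1–LM. Ccnd2 therefore did not share the drop of Ccnd1 in either clone. Under DFX the clones had nearly the same level (log2 ratio 0.03, interval −0.03 to 0.10). Ccnd3 (ENSMUSG00000034165, plus strand, chr17:47505051-47599691), for cyclin D3, had 5.67 FPKM (DMSO) and 4.55 (DFX) in 4T1–HM, and 9.20 (DMSO) and 9.71 (DFX) in 4T1–LM. Both libraries of 4T1–HM were below both of 4T1–LM. The log2 ratio of HM to LM was −0.70 (−0.83 to −0.57) under DMSO and −1.09 (−1.23 to −0.96) under DFX, and neither passed 2–fold on the FPKM + 1 scale.

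The makeup of the D–type cyclin transcripts therefore differed with treatment. The summed FPKM of the 3 genes was 320 (DMSO) and 73.3 (DFX) in 4T1–HM, and 352 (DMSO) and 111 (DFX) in 4T1–LM. Ccnd1 gave 91.6% of this sum in HM_Ctrl and 92.6% in LM_Ctrl, but 62.0% in HM_DFX and 70.7% in LM_DFX. The share of Ccnd2 was 6.61% and 4.81% under DMSO against 31.8% and 20.5% under DFX, in the order HM and LM. The ratio of Ccnd1 to Ccnd2 was 13.9 (DMSO) and 1.95 (DFX) in 4T1–HM, and 19.3 (DMSO) and 3.44 (DFX) in 4T1–LM. Such shares do not depend on the scaling of a library, but they do depend on the annotated lengths of the genes.

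**Figure D2:**
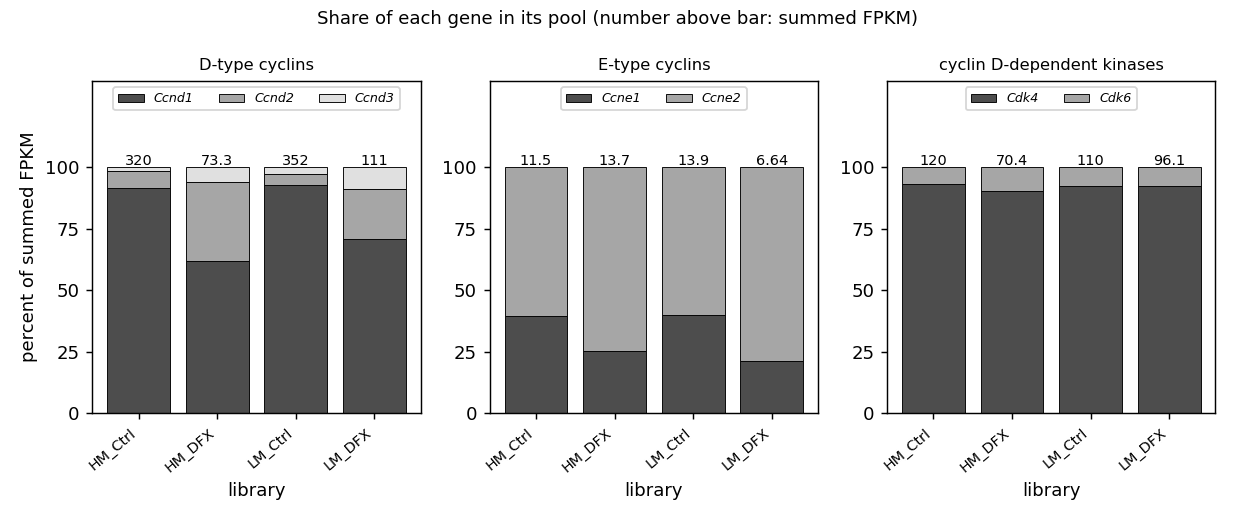
Percent of the summed FPKM of each pool given by each gene in each of the 4 libraries, for the D–type cyclins, the E–type cyclins and the cyclin D–dependent kinases, with the summed FPKM above each bar. Ccnd1 takes 91.6% and 92.6% of the D–type pool under DMSO and 62.0% and 70.7% under DFX, and Cdk4 takes at least 90.4% of the kinase pool in every library.

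Cdk4 (ENSMUSG00000006728, plus strand, chr10:127063534-127067920) encodes the main partner of cyclin D in many tissues, and Cdk6 the other. The promoter of Cdk4, the member next to Ccnd1 in level, is shown because few promoters hold as many copies of the E–box, a word that Myc and related proteins can bind. The 250 bases before the RefSeq start of Cdk4 (build GRCm38.p6, plus strand, chr10:127063285-127063534) are given 5′ to 3′, with the E–box CACGTG, which reads the same on both strands, in capitals.
Cdk4: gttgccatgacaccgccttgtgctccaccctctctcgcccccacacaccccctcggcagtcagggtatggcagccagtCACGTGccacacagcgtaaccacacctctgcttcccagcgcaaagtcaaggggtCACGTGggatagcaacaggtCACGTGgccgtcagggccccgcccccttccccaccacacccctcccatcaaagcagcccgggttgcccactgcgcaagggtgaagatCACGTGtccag
This stretch holds 4 E–boxes, which begin 172, 118, 98 and 11 bases before the start. Of 32851 promoter windows of 300 bases in the RefSeq table, 7.15% hold at least 1 E–box and 8 windows (0.0244%) hold at least 4. The core of the HIF site, ACGTG, lies inside each CACGTG, so the motifs cannot be separated here. A match of letters is a description and not a bound site.

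Cdk4 had 112 FPKM (DMSO) and 63.7 (DFX) in 4T1–HM, and 102 (DMSO) and 88.6 (DFX) in 4T1–LM. HM_DFX was the lowest of the 4 libraries. The log2 ratio under DFX was −0.81 (−0.88 to −0.75) in 4T1–HM, short of 2–fold, and −0.20 (−0.25 to −0.15) in 4T1–LM. The gene Tspan31 on the opposite strand overlaps 19.7% of the exonic length of Cdk4 and had between 44.6 and 50.4 FPKM. Whether strand was used in counting is not given in the sources used here. Cdk6 (ENSMUSG00000040274, plus strand, chr5:3341485-3531008) had 8.44 FPKM (DMSO) and 6.76 (DFX) in 4T1–HM, and 8.26 (DMSO) and 7.46 (DFX) in 4T1–LM, a narrow range in which both DFX libraries were the lower ones. Cdk4 exceeded Cdk6 between 9.42–fold and 13.3–fold. The summed FPKM of the D–type cyclins was 2.66 times that of their 2 kinases in HM_Ctrl and 3.20 times in LM_Ctrl. Under DFX it was 1.04 times in HM_DFX and 1.15 times in LM_DFX. These ratios depend on the annotated lengths and are not counts of transcripts.

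The E–type cyclin genes were low in level, and their DFX responses lay farther apart in the clones than those of the D–type cyclin genes. The promoter of Ccne1 is shown because it was the member, besides Ccnd1, called under DFX. The stretch from 250 to 51 bases before the RefSeq start (GRCm38.p6, minus strand, chr7:38107541-38107740) is given 5′ to 3′, with the GC box GGGCGG, or CCGCCC on the other strand, in capitals.
Ccne1: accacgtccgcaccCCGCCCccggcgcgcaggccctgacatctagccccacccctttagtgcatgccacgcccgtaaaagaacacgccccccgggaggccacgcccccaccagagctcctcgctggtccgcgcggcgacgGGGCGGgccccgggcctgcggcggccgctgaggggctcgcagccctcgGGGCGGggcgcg
The stretch holds 3 GC boxes, and the whole window holds 4, of which the last begins 49 bases before the start. At least 4 GC boxes were present in 5.49% of the 32851 windows and at least 1 in 35.7%. The E2F words TTTGGCGC, TTTCCCGC, TTTCGCGC and TTTGCCGC were searched on both strands in the windows of the 6 genes that the table holds (Ccnd3, Ccne1, Cdk2, Cdk4, Cdk6 and E2f1, with 7 windows in all). Cdk2 alone had a match, at 140 bases before its start, and 2.26% of all windows have at least 1. Only exact copies of these words inside the windows were searched. E2F sites of other spelling or position would be missed, so the lack of a match does not mean the lack of a site. The genes with no entry were Ccnd1, Ccnd2, Ccne2 and Rb1.

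Ccne1 (ENSMUSG00000002068, minus strand, chr7:38097984-38107534) encodes cyclin E1. It had 4.55 FPKM (DMSO) and 3.43 (DFX) in 4T1–HM, and 5.52 (DMSO) and 1.41 (DFX) in 4T1–LM. LM_DFX stood below the other 3 libraries. In 4T1–LM the level was 3.92–fold lower with DFX (log2 ratio −1.97, interval −2.35 to −1.60), and in 4T1–HM the log2 ratio was −0.41 (−0.74 to −0.09). This gene had the fewest fragments of the 10, with 203 (DMSO) and 131 (DFX) in 4T1–HM, and 231 (DMSO) and 82 (DFX) in 4T1–LM. Ccne2 (ENSMUSG00000028212, plus strand, chr4:11191351-11204779), for the second E–type cyclin, had 6.99 FPKM (DMSO) and 10.2 (DFX) in 4T1–HM, and 8.37 (DMSO) and 5.23 (DFX) in 4T1–LM. Its DFX library was the higher one in 4T1–HM and the lower one in 4T1–LM. The log2 ratio was 0.55 (0.36 to 0.74) in 4T1–HM and −0.68 (−0.87 to −0.48) in 4T1–LM, and neither reached 2–fold. Ints8 on the opposite strand, with 7.05 to 10.5 FPKM, overlaps 17.4% of the exonic length of Ccne2.

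Summed over both genes, E–type cyclin transcripts had 11.5 FPKM in HM_Ctrl and 13.7 in HM_DFX, against 13.9 in LM_Ctrl and 6.64 in LM_DFX. The share of Ccne2 was 60.5% and 60.3% under DMSO and 74.9% and 78.8% under DFX, in the order HM and LM, so the shift in makeup had the same direction in both clones. Cdk2 (ENSMUSG00000025358, minus strand, chr10:128697939-128705051), the kinase of the E–type cyclins, had 16.5 FPKM (DMSO) and 13.3 (DFX) in 4T1–HM, and 25.7 (DMSO) and 17.2 (DFX) in 4T1–LM. LM_Ctrl was the highest library. The log2 ratio under DFX was −0.31 (−0.48 to −0.14) in 4T1–HM and −0.58 (−0.71 to −0.45) in 4T1–LM. Its fragments were recovered at the smallest length that gave whole numbers, because the deposited coordinates differ from the annotation used.

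Rb1 (ENSMUSG00000022105, minus strand, chr14:73183673-73325822), which encodes the Rb protein, had 4.96 FPKM (DMSO) and 2.87 (DFX) in 4T1–HM, and 3.06 (DMSO) and 5.11 (DFX) in 4T1–LM. The level was lower with DFX in 4T1–HM and higher in 4T1–LM, with log2 ratios of −0.79 (−1.02 to −0.57) and 0.74 (0.54 to 0.94). Neither ratio reached 2–fold. They rest on 500 and 248 fragments in 4T1–HM and on 290 and 673 in 4T1–LM. Exons of Rcbtb2 and Lpar6, both on the opposite strand, overlap 8.11% and 6.78% of the exonic length of Rb1. Rcbtb2 had between 3.02 and 5.48 FPKM, a level like that of Rb1, and Lpar6 between 0.232 and 2.38. What these overlaps add to the Rb1 values was not tested. E2f1 (ENSMUSG00000027490, minus strand, chr2:154559407-154569892) encodes an activating E2F that Rb binds. It had 16.0 FPKM (DMSO) and 15.6 (DFX) in 4T1–HM, and 19.6 (DMSO) and 24.1 (DFX) in 4T1–LM, with log2 ratios under DFX of −0.03 (−0.18 to 0.12) and 0.30 (0.18 to 0.41). The ratio of E2f1 to Rb1 was 3.22 (DMSO) and 5.44 (DFX) in 4T1–HM, but 6.41 (DMSO) and 4.72 (DFX) in 4T1–LM. Median–ratio scaling, which moved the median of all expressed genes in HM_DFX against HM_Ctrl from −0.10 to 0.00, gave 0.10 for E2f1 in this comparison, and no other of the 10 genes changed sign under it in any comparison.

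**Figure D3:**
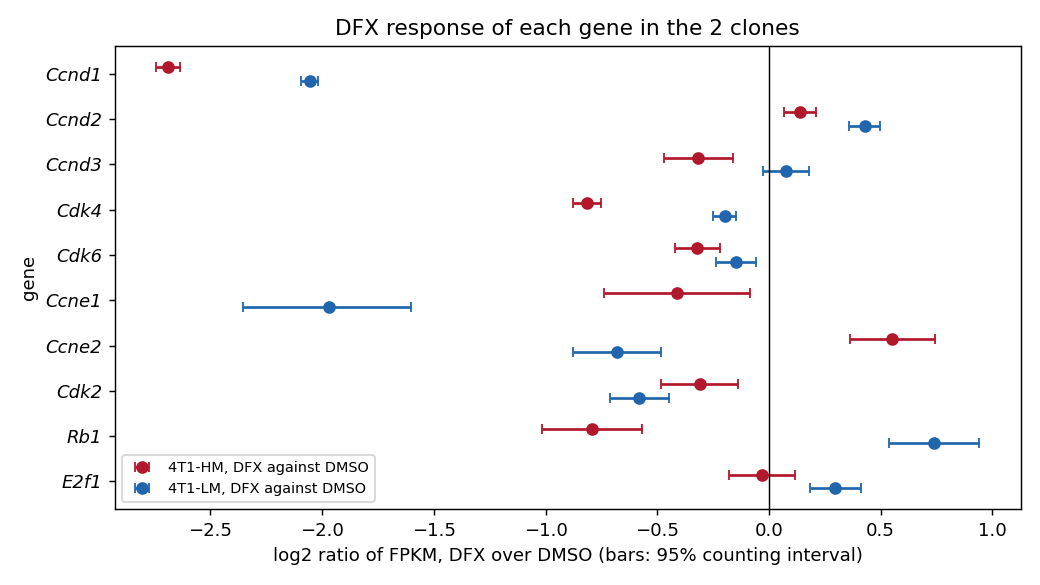
Log2 ratio of FPKM, DFX over DMSO, for each of the 10 genes in 4T1–HM (red) and 4T1–LM (blue), with bars for the 95% counting interval of the fragments. Ccnd1 lies lowest in both clones at −2.69 and −2.06, while Ccne2 and Rb1 lie on opposite sides of 0 in the clones.

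The DFX responses of the clones were set against each other, as the difference of the log2 fold changes on the FPKM + 1 scale (HM minus LM). This difference reached 2–fold for 3 of the 10 genes, where it did so for 8.90% of expressed genes. The genes were Rb1 (−1.21), Ccne1 (1.11) and Ccne2 (1.08). For Ccnd1 and Cdk4 the differences were −0.62 and −0.61, with the lower value in 4T1–HM. The others lay between −0.33 and 0.26. Whether the clones respond differently was not tested, since each response rests on 1 library for each condition.

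Between the clones themselves, 0 of the 10 genes reached 2–fold in HM_Ctrl against LM_Ctrl, where 6.80% of expressed genes did (3.15% lower and 3.65% higher in HM_Ctrl), and 0 in HM_DFX against LM_DFX, where 8.36% did (5.05% lower and 3.31% higher in HM_DFX). Without drug the farthest from 0 were Ccnd3, Cdk2 and Rb1, with log2 ratios of −0.70, −0.64 and 0.70. Under DFX the largest were Ccne1 with 1.28 (0.87 to 1.70) and Ccnd3 with −1.09. On the FPKM + 1 scale these were 0.88 and −0.95, and with a pseudocount of 0.1 in place of 1 both genes passed 2–fold. The comparisons between clones use the same libraries as the DFX comparisons and are not independent of them.

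The other genes of the circuit were read from 5 lists, beginning with the remaining E2F and pocket protein genes and the DREAM complex, which represses cell cycle genes in resting cells. All 17 were expressed. The counts of each list are to be read against the shares of all expressed genes at least 2–fold lower or higher with DFX, 12.4% and 6.93% in 4T1–HM and 8.72% and 7.09% in 4T1–LM. In 4T1–HM 2 fell and 2 rose by at least 2–fold (list median 0.04), and in 4T1–LM 1 fell and 3 rose (list median −0.17). E2f8, a repressive E2F, fell from 28.8 to 10.5 FPKM in 4T1–HM and from 28.8 to 10.9 in 4T1–LM. The DREAM subunit genes Lin37 and Lin54 rose in both clones. Lin37 had log2 fold changes of 1.16 in 4T1–HM and 1.51 in 4T1–LM, and Lin54 of 1.20 and 1.13. Lin52 rose by 1.23 in 4T1–LM, with 0.53 in 4T1–HM. Rbl2, the gene of the pocket protein p130, fell from 6.52 to 2.00 FPKM in 4T1–HM, and had 3.66 and 3.14 FPKM in 4T1–LM.

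Of the 7 genes for CDK inhibitors 4 were expressed. Cdkn1a, which encodes p21, an inhibitor of CDK2, rose from 14.1 to 84.5 FPKM in 4T1–HM and from 8.09 to 61.3 in 4T1–LM. Cdkn2c, for the CDK4 and CDK6 inhibitor p18, fell from 93.6 to 7.08 FPKM in 4T1–HM and from 56.9 to 9.53 in 4T1–LM. These genes moved in opposite directions, and each moved the same way in both clones. Cdkn1b and Cdkn2d were not called, with log2 fold changes of −0.53 and −0.49 in 4T1–HM and of 0.23 each in 4T1–LM. Cdkn1c, Cdkn2a and Cdkn2b, named after their values were seen, stayed below 0.1 FPKM in each library.

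The 17 regulators of the G1 cyclins and kinases were all expressed and 0 of them passed 2–fold under DFX in either clone, with medians of −0.07 in 4T1–HM and −0.04 in 4T1–LM. Myc came closest, with 119 FPKM (DMSO) and 231 (DFX) in 4T1–HM, and 103 (DMSO) and 196 (DFX) in 4T1–LM. Its protein can activate transcription of cyclin D genes and Cdk4. With DFX, Ccnd1 and Cdk4 were lower and Ccnd2 higher in both clones, and Ccnd3 was lower in 4T1–HM only. By Western blot, at a lower DFX dose, the study found Myc protein more strongly suppressed in the highly metastatic clone than in the other. The RNA values do not show Myc activity, which was not tested. Fbxo31, for a ubiquitin ligase subunit that targets cyclin D1, had log2 fold changes of −0.81 in 4T1–HM and 0.30 in 4T1–LM, and Ambra1, for another such subunit, 0.67 and 0.33. Skp2, for the subunit that marks p27 for degradation, had −0.29 and −0.92. For Ccnh and Cdk7, whose products form the CDK–activating kinase, the values were −0.72 and −0.38 in 4T1–HM and −0.24 and −0.62 in 4T1–LM, and for the kinase gene Gsk3b they were 0.12 and 0.62.

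Among 28 targets of E2F at the G1/S transition, all expressed, 4 fell by at least 2–fold in 4T1–HM and 3 in 4T1–LM, and 0 rose. Over all expressed genes 12.4% were lower in 4T1–HM and 8.72% in 4T1–LM, so the counts of lower targets are near the background. The medians were −0.09 and −0.28, against −0.10 and −0.04 over all expressed genes. Tk1, for thymidine kinase, fell from 28.9 to 3.71 FPKM in 4T1–HM and from 41.4 to 11.3 in 4T1–LM. Rrm2, for the iron–containing subunit of ribonucleotide reductase, fell from 88.4 to 30.3 and from 119 to 22.6 FPKM. Ccna2, the cyclin that follows cyclin E, fell by 1.05 and 1.08 on the log2 scale, and Gins2, for a part of the replicative helicase, had values of −1.23 in 4T1–HM and −0.99 in 4T1–LM. With DFX against DMSO, 15 of the 28 targets had a lower value in 4T1–HM and 22 in 4T1–LM. Without drug, 26 of the 28 had a lower value in HM_Ctrl than in LM_Ctrl, and 1 of them passed 2–fold. The median of this comparison was −0.48, against 0.01 over all expressed genes. The shares of all expressed genes with a lower value were not computed, and each clone had 1 library without drug.

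Outside G1, 28 further cyclin and CDK genes were expressed, 4 of which also belong to the lists of targets and regulators. In 4T1–HM 7 fell and 3 rose by at least 2–fold, and in 4T1–LM 4 fell and 1 rose. The mitotic cyclin gene Ccnb2 fell from 72.3 to 8.96 FPKM in 4T1–HM and from 102 to 16.1 in 4T1–LM, and Ccnb1 from 33.7 to 9.03 and from 36.4 to 8.67. Ccnf, for an F–box protein of G2, fell by 1.08 in 4T1–HM and by 1.68 in 4T1–LM on the log2 scale. Cdk5 and Cdk10 fell by 1.52 and 1.37 in 4T1–HM and had −0.61 and −0.52 in 4T1–LM. Ccng2, an atypical cyclin gene associated with arrest, rose by 2.04 on the log2 scale in 4T1–LM and had 0.54 in 4T1–HM. The list medians were −0.02 and 0.01. The plot of the lists shows that the fold changes of single genes spread widely around such medians.

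**Figure D4:**
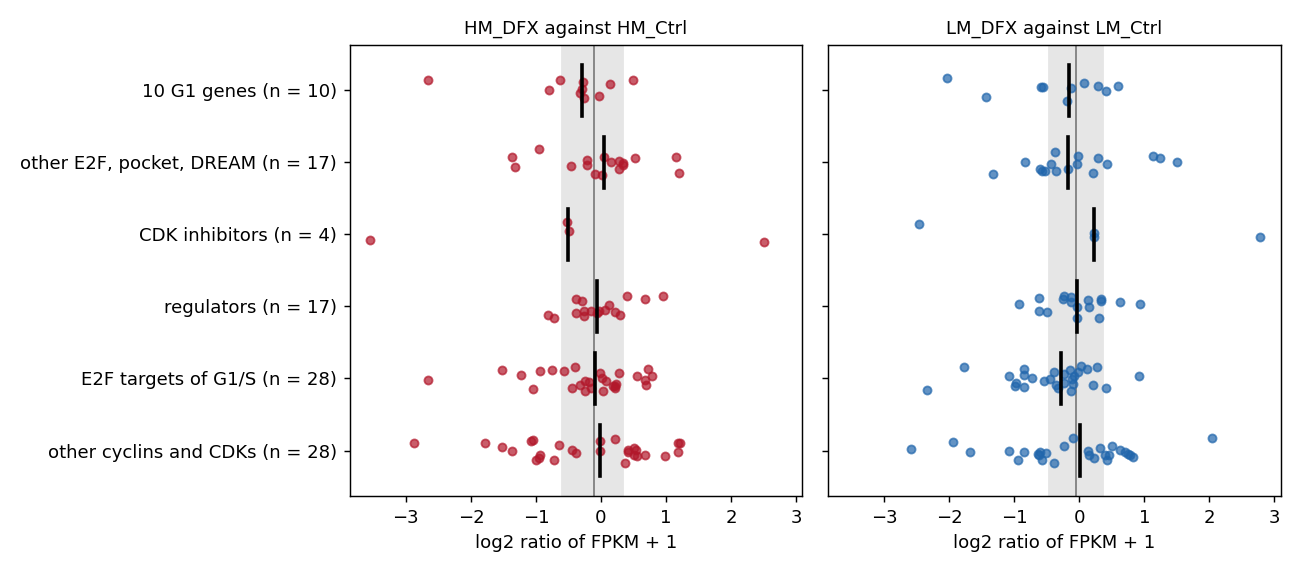
Log2 ratio of FPKM + 1 under DFX for each expressed gene (points) of the 10 G1 genes and of the 5 lists, in 4T1–HM on the left and 4T1–LM on the right. Black bars are list medians, and the grey line and band are the median and quartiles of all 12669 expressed genes. Ccnd1 is the leftmost point of the top line in both panels.

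The annotation deposited with the values gives the term G1/S transition of mitotic cell cycle to 8 of the 10 genes (not to Ccnd3 and Cdk6) and to 50 of the 12669 expressed genes. Of the 31–base words of a member, the share that also occurs in transcripts of another gene, read on either strand, was highest for Ccnd1 (22.3%) and Cdk4 (19.5%).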

How the data were processed

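RNA of 4T1 single–cell clones was sequenced in 4 libraries, grouped by their labels, with 1 library for each condition. The study describes replicated experiments, but whether replicate cultures were pooled into a library is not given in the sources used here. Per the labels, the authors used directional poly(A) libraries, FastQC, Trimmomatic, HISAT2 on mm10 and featureCounts. The versions and the use of strand are not given in the sources used here. The authors deposited FPKM for 49585 genes, with 1 column for each library. The paper's edgeR calls were not repeated, because 1 library for each condition gives no measure of spread. If counting ignored strand, genes overlapping on opposite strands cannot be told apart.

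Exon lengths of GENCODE M21 turned FPKM into fragments, with 96.8% of 18235 genes above 0 whole within 0.02 in all 4 libraries. Genes with other coordinates, Cdk2 among them, were solved from their own values. Fragments give depth and exact 95% intervals (Clopper–Pearson for ratios, Poisson for levels). Fold changes used a pseudocount of 1 and calls a 2–fold threshold on genes of at least 1 FPKM, in 4 comparisons. Alternatives were a pseudocount of 0.1, no filter, 2 other scalings, thresholds of 1.5–fold and 4–fold, and protein–coding genes only. From each of 5 lists (other E2F, pocket protein and DREAM genes, CDK inhibitors, regulators, E2F targets, other cyclins and CDKs) up to 4 genes with the largest DFX change in each clone were named. The members and lists were chosen with earlier results of these data known. Calling and fragment recovery were tested on simulated data. Python 3.11.15, numpy 2.4.6, pandas 2.3.3 and scipy 1.17.1 were used.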

Additional observations from a re-analysis of the deposited data

Results flagged for a closer look

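Of the 10 G1 genes, 4 had log2 fold changes of opposite sign under DFX in the 2 clones, where 23.0% of the 12669 expressed genes did. The difference between the clones was not tested, as each response rests on 1 library for each condition. On the FPKM + 1 scale, Rb1 had −0.62 in 4T1–HM and 0.59 in 4T1–LM, a difference of −1.21. Ccne2 had 0.49 in 4T1–HM and −0.59 in 4T1–LM, a difference of 1.08. For both genes the counting intervals lay on opposite sides of 0. For Ccnd3 the values were −0.26 and 0.07, a difference of −0.33, and for E2f1 they were −0.03 and 0.28, a difference of −0.31. The interval of Ccnd3 in 4T1–LM and that of E2f1 in 4T1–HM included 0, and E2f1 had 0.10 in 4T1–HM under median–ratio scaling.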

How the results depend on the processing

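No paired analysis was possible because each condition has 1 library. The fold threshold moved the counts most. At 1.5–fold, 3 of the 10 G1 genes were called in HM_DFX against HM_Ctrl, beside 5328 of the 12669 expressed genes. In LM_DFX against LM_Ctrl 4 of the 10 were called, beside 4616 of the 12669. Between the clones, 2 of the 10 were called in HM_Ctrl against LM_Ctrl, beside 2431 of the 12669. In HM_DFX against LM_DFX 6 of the 10 were called, beside 3108 of the 12669. The difference of the DFX responses (HM minus LM) reached 1.5–fold for 5 of the 10. The share of all expressed genes with such a difference was computed at 2–fold only (8.90%), so this count has no background beside it. At 4–fold, 1 of the 10 was called in LM_DFX against LM_Ctrl, beside 314 of the 12669. The difference of the responses reached the 4–fold threshold for 0 of the 10. In the same order of comparisons, the distinct genes of the 5 lists called were 19, 13, 3 and 2 at 2–fold, 34, 35, 21 and 19 at 1.5–fold and 4, 5, 0 and 0 at 4–fold, and the expressed genes called were 2446, 2003, 861 and 1059 at 2–fold, 5328, 4616, 2431 and 3108 at 1.5–fold and 277, 314, 97 and 95 at 4–fold. With a pseudocount of 0.1, 3070 genes were called in LM_DFX against LM_Ctrl, 1557 in HM_Ctrl against LM_Ctrl and 1993 in HM_DFX against LM_DFX, with 2 of the 10 G1 genes in the last. Of 420 fold changes, differences and list medians recomputed under an alternative, 12 changed sign or became 0, of which 1 belonged to a G1 gene (E2f1 in 4T1–HM). Under median–ratio scaling Ccnd1 had −2.53 in 4T1–HM and −1.99 in 4T1–LM, and the medians in 4T1–HM became 0.07 for the regulators, 0.05 for the E2F targets and 0.10 for the other cyclins and CDKs. Ccne1 had the fewest fragments of the 10 genes in each library (82 in LM_DFX) and the widest counting interval under DFX in both clones.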

Other observations

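Genes that share the loci of the members gave further values. Lpar6, a lysophosphatidic acid receptor gene whose exons overlap those of Rb1 on the opposite strand, had 1.68 FPKM (DMSO) and 0.232 (DFX) in 4T1–HM, and 2.38 (DMSO) and 0.245 (DFX) in 4T1–LM. It was thus lower with DFX in both clones, while Rb1 had a lower level in 4T1–HM and a higher one in 4T1–LM. Rcbtb2, which also overlaps Rb1 on the opposite strand, had 5.48 and 3.02 FPKM in 4T1–HM and 5.30 and 3.69 in 4T1–LM. Tspan31, the neighbour of Cdk4, stayed between 44.6 and 50.4 FPKM in all 4 libraries, while Cdk4 had between 63.7 and 112. Bysl, which overlaps 4.11% of the exonic length of Ccnd3, had 12.5 and 16.2 FPKM in 4T1–HM and 19.6 and 14.9 in 4T1–LM. These neighbours were chosen for their position after the values were seen.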
